A study of Homo sapiens with 10 samples.

Results

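The circadian clock genes described here are CLOCK, ARNTL (also called BMAL1), PER1, PER2, PER3, CRY1, CRY2, NR1D1, NR1D2 and DBP, 10 genes chosen by name as the core of the molecular clock. Of these, 9 had a row in the deposited gene table and all 9 had the status OK, which means that the authors' test was run, and the expression of PER3 was not analysed here. The table holds 241080 loci, of which 54389 carry a gene symbol. CLOCK, ARNTL, PER2, CRY1, CRY2, NR1D1, NR1D2 and DBP each had a row of their own, while PER1 shared its row with VAMP2 and RP11-599B13.6, so that its values are those of the merged locus.

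RNA came from nuclei of HEK293, a human embryonic kidney line grown adherent, that had been divided into a chromatin pellet extract (CPE, 3 samples) and a soluble nuclear extract (SNE, 3 samples). Chromatin pellets with DRB, an inhibitor of transcription elongation (2 samples), and with mock treatment (2 samples) also belong to the series and have no column in the table. The labels name no treatment that would synchronise the clocks of the cells. For each locus the table gives 1 FPKM value (fragments scaled to transcript length and library size) per fraction, pooled by the authors over replicates, which leaves no measure of replicate spread and no read depth. A gene was called when the authors' q, the p-value of their Cuffdiff test adjusted over the whole table, was at most 0.05. FPKM is relative to all RNA of a fraction, so a ratio between fractions is not the share of a gene's molecules in each, and with bulk RNA the number of nuclei holding a transcript cannot be told apart from the amount in each nucleus.

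The fractions and the cell line were checked with marker genes from the authors' deposited table. NEAT1 and MALAT1, nuclear RNAs retained near chromatin, were called higher in CPE, and GAPDH and RPLP0, abundant messenger RNAs, were called higher in SNE. VIM and KRT8, cytoskeletal genes active in HEK293, had FPKM values of 50.7 and 18.6 in CPE and 173.0 and 86.9 in SNE per the authors' deposited table. The kidney lineage genes PAX2 and LHX1 were at or below 0.75 FPKM in both fractions, and NEFM, a neurofilament gene often seen in this line, was too low to be tested. Of the markers of other cell types, CD3E and HBB were listed at 0 in both fractions and the others were at or below 0.373 FPKM. ALB, a hepatocyte gene, was among these, with 0.373 FPKM in CPE and 0 in SNE, and was called higher in CPE per the authors' deposited table (q = 0.000706).

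In the circadian clock, the proteins CLOCK and ARNTL pair and activate genes through a DNA element called the E-box, among them the PER and CRY genes, whose products gather in a complex that represses CLOCK and ARNTL. A second loop joins the nuclear receptors NR1D1 and NR1D2, which repress ARNTL, with the ROR receptors, which activate it from the same element. DBP is an output factor that binds the D-box and is itself driven by CLOCK and ARNTL, and in the kidney the clock is known to time salt and water handling.

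Promoter sequences, searched for the letters of these elements, are shown for 4 members that the results turn on. CRY1 is the called member and CRY2 its paralog with the opposite sign of ratio. NR1D2 is the member with the lowest ratio, and PER1 is an E-box gene in a merged row. Each line is the 250 bases before a RefSeq start on GRCh38.p14, a build other than the hg19 of the gene table, with motif matches in capitals.
CRY1 (chr12:107093550-107093799, minus strand): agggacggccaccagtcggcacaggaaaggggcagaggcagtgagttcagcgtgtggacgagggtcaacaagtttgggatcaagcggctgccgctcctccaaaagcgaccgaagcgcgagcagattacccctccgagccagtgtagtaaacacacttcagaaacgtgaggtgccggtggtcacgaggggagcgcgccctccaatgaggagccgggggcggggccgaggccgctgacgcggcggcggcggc
CRY2 (chr11:45847225-45847474, plus strand, the second of its listed starts): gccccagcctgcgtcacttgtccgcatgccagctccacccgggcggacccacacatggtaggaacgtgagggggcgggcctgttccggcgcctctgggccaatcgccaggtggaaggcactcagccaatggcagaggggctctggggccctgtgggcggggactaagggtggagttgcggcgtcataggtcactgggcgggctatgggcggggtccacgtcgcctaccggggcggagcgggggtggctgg
NR1D2 (chr3:23945871-23946120, plus strand, the second of its listed starts): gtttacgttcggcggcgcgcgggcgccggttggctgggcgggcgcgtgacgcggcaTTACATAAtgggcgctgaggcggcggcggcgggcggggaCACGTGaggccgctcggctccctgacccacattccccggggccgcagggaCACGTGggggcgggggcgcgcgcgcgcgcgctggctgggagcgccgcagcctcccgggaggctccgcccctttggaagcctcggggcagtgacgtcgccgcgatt
PER1 (chr17:8152405-8152654, minus strand): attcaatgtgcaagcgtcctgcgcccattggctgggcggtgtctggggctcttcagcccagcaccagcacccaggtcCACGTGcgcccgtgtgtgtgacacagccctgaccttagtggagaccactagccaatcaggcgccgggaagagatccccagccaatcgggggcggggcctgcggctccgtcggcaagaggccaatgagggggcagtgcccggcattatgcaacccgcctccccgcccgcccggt

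The motifs searched on both strands were CACGTG (E-box), TTANGTAA (D-box) and the receptor element shared by ROR and NR1D receptors (AA, any base, T, any base, then GGTCA), over windows from 250 bases before to 50 bases after each start. All 10 members had a window, 15 windows in all, and their 8 matches did not overlap. PER1 held an E-box 173 bases before its start, and NR1D2 held E-boxes 155 and 105 bases before its second start together with a D-box, TTACATAA, 194 bases before it. PER2 held the D-box TTACGTAA from 3 bases before its start, and PER3 held TTATGTAA 177 bases before its first listed start. ARNTL held the receptor element AAGTAGGTCA 27 bases after its first listed start, and CLOCK held TGACCCACTT, the same motif on the other strand, 217 bases before its second. CRY1, CRY2, NR1D1 and DBP held none of these letters in their windows. The window at the other listed start of CLOCK, ARNTL, PER3 and NR1D2 held none either. Over all 35116 promoter windows of the RefSeq table, 7.26% held the E-box, 2.18% the D-box and 0.581% the receptor element. The members' windows held them in 2, 3 and 2 cases. A match gives letters only, and no binding was measured here. Variants of these letters were not searched, so a window without a match may still hold an element.

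**Figure D1:**
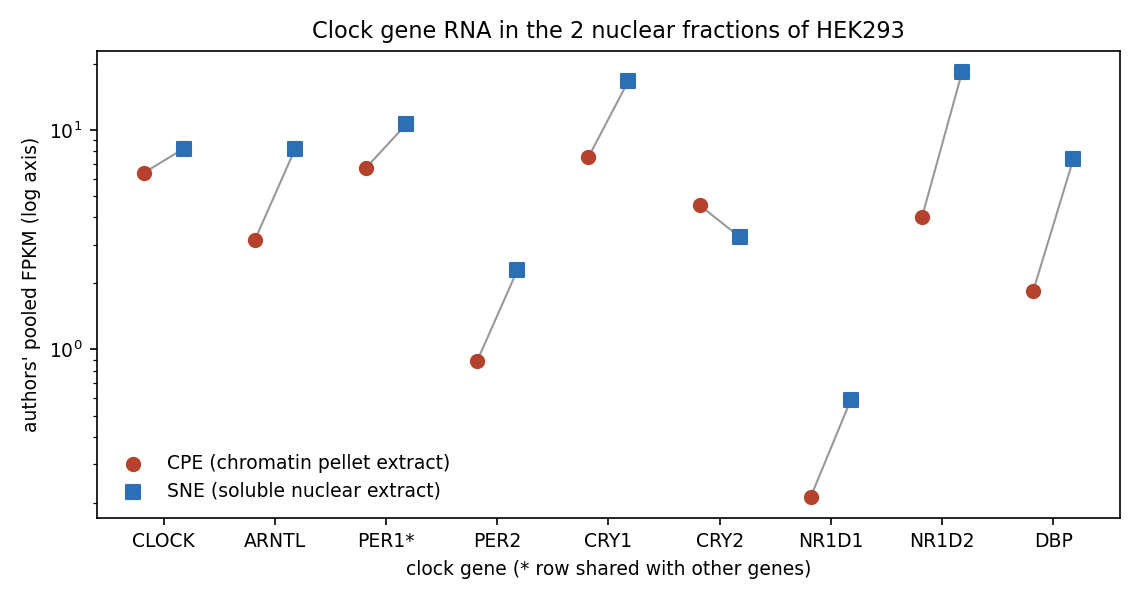
The authors' pooled FPKM of each clock gene in CPE (red circles) and SNE (blue squares) on a log axis, with a line joining the fractions. CRY2 is the gene whose CPE value, 4.54, lies above its SNE value, 3.26, and NR1D1 is the lowest in both fractions.

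The levels of the 9 measured clock genes lay between 0.214 and 7.53 FPKM in CPE (median 4.02) and between 0.590 and 18.4 FPKM in SNE (median 8.16), as the plot of levels by fraction shows. From high to low, the order in CPE was CRY1, PER1 (merged), CLOCK, CRY2, NR1D2, ARNTL, DBP, PER2 and NR1D1. In SNE it was NR1D2, CRY1, PER1 (merged), CLOCK, ARNTL, DBP, CRY2, PER2 and NR1D1. Without replicate values it cannot be said which neighbours in either order differ. NR1D2 thus led in SNE and stood below CRY2 in CPE, while CRY2 stood below DBP in SNE.

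A call was made for 1 of the 9 members, CRY1, which was lower in CPE, while 8 were not called. Among all 18271 tested loci with a symbol, 41.2% were called at the same threshold, 39.3% as higher in SNE and 1.83% as higher in CPE. The members' 11.1% was thus below that share, as it was below the 33.8% called among the 9260 tested symbol loci in the members' own range of mean FPKM, 0.402 to 12.2. No member was called higher in CPE by Cuffdiff, and 0 were higher there at an unadjusted p under 0.05. At that unadjusted threshold 4 members, NR1D2, CRY1, PER2 and ARNTL, were lower in CPE, against 53.9% of all tested symbol loci in either direction. The ratio itself was below 0 for 8 members and above 0 for CRY2 alone, and 78.1% of tested symbol loci had a ratio below 0. The log2 ratio (CPE over SNE) had a median of -1.37 over the members and of -1.21 over all tested symbol loci (interquartile range -1.91 to -0.23). In the members' FPKM range it was -1.11. The zero of these ratios is set by the authors' scaling, and centring, which subtracts the median of all tested symbol loci (-1.21) from each ratio, put 4 members above 0 and 5 below, without a new test. These counts describe the genes and single out no property of the list.

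**Figure D2:**
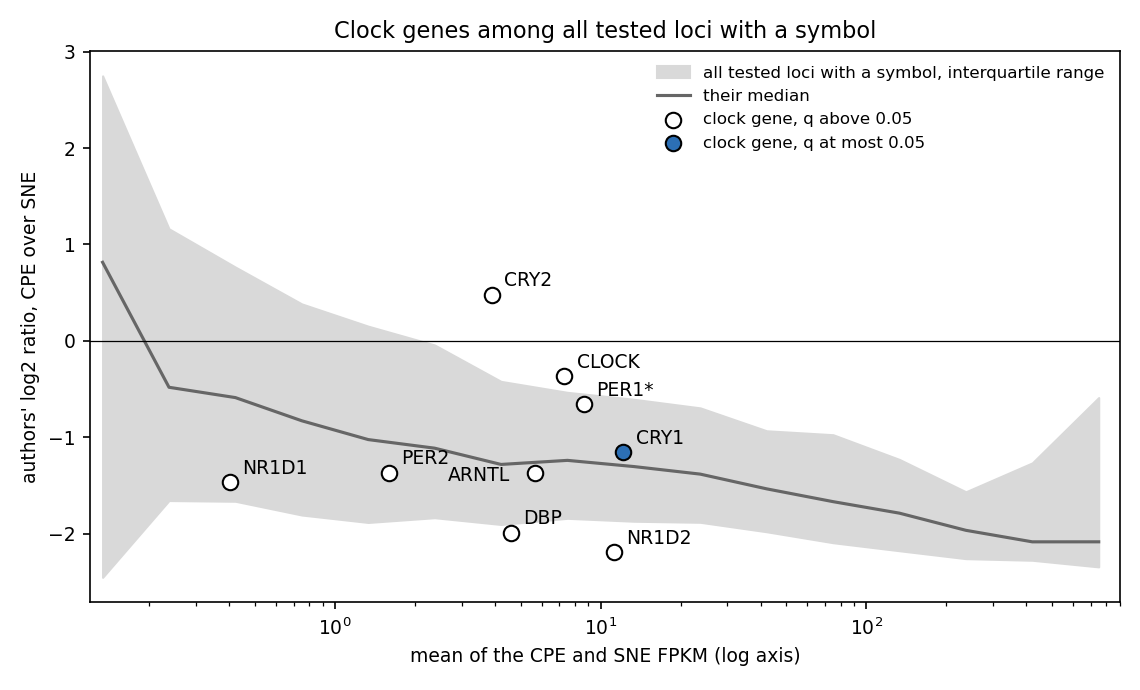
The deposited log2 ratio (CPE over SNE) against the mean FPKM of both fractions (log axis) for 9 clock genes, over the median (line) and interquartile range (grey) of all tested loci with a symbol in bins of FPKM. CRY1, the filled point at a ratio of -1.16 (0.059 after centring on the median of symbol loci), was the called member, and CRY2, at 0.48, lies above 0.

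The activators CLOCK and ARNTL, which act as a pair in the protein, had unlike ratios. CLOCK, a transcription factor with a histone acetyltransferase domain (hg19 region chr4:56262124-56414981), had 6.37 FPKM in CPE and 8.23 FPKM in SNE, a log2 ratio of -0.37 without a call per the authors' deposited table (p = 0.513, q = 0.582), which became 0.85 after centring. ARNTL (hg19 region chr11:13298199-13484844) had 3.15 FPKM in CPE and 8.16 FPKM in SNE, a log2 ratio of -1.37 per the authors' deposited table (p = 0.0282, q = 0.161), also not called. In SNE their values were within 0.1 FPKM of each other, and in CPE the value of CLOCK was the higher. The difference between their ratios was not tested. Their paralogs, the 2 other activators of the pathway list, had ratios in the same order: NPAS2, which can replace CLOCK, had a log2 ratio of -0.21 (q = 0.920), and ARNTL2 had -1.58 and was called lower in CPE (q = 0.000706), both per the authors' deposited table.

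Among the period genes, which encode the repressor complex's scaffolds, neither measured row was called. PER2 (hg19 region chr2:239140325-239198743) had 0.889 FPKM in CPE and 2.29 FPKM in SNE, a log2 ratio of -1.37 per the authors' deposited table (p = 0.0192, q = 0.119). The merged row of PER1, VAMP2 and RP11-599B13.6 (hg19 region chr17:8043678-8066931) had 6.73 FPKM in CPE and 10.6 FPKM in SNE, a log2 ratio of -0.66 per the authors' deposited table (p = 0.0709, q = 0.317), which became 0.56 after centring. VAMP2 encodes a vesicle protein with no part in the clock, and its reads cannot be separated from those of PER1 in this row.

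The cryptochromes, which bind the activators and silence them, divided. CRY1 (hg19 region chr12:107384009-107517092) had 7.53 FPKM in CPE and 16.8 FPKM in SNE and was 2.23-fold lower in CPE, a log2 ratio of -1.16 per the authors' deposited table (p = 0.00385, q = 0.0324). That ratio lay at percentile 51.9 of all tested symbol loci, about their middle, and became 0.059 after centring on their median, so that lower in CPE holds on the authors' scaling and not relative to a typical gene. The call was lost at a q of at most 0.01. CRY2 (hg19 region chr11:45868669-45905253) had 4.54 FPKM in CPE and 3.26 FPKM in SNE, a log2 ratio of 0.48 that was not called per the authors' deposited table (p = 0.214, q = 0.493). Its ratio stood at percentile 83.5, the highest of the members, and the difference from CRY1 was not tested. In the promoters printed above, neither paralog carries an exact match to any of the 3 motifs, and variant letters were not searched.

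NR1D2 and DBP had the lowest ratios of the members, also with a pseudocount of 0.1 or 1, without a call for either. NR1D2, the receptor REV-ERB beta (hg19 region chr3:23845515-24022200), had 4.02 FPKM in CPE and 18.4 FPKM in SNE, a log2 ratio of -2.19 per the authors' deposited table. Its p of 0.00775 and q of 0.0575 per the authors' deposited table fell just outside the threshold, where the largest p called among symbol loci higher in SNE was 0.0065. DBP, the D-box activator (hg19 region chr19:49104067-49140695), had 1.85 FPKM in CPE and 7.35 FPKM in SNE, a log2 ratio of -1.99 per the authors' deposited table, yet a p of 0.184 and a q of 0.493. NR1D2 and DBP lay at percentiles 15.5 and 22.3 of all tested symbol loci, and both ratios exceed in size that of CRY1. NR1D1, the receptor REV-ERB alpha (hg19 region chr17:38175159-38256978), was the lowest member in both fractions, with 0.214 FPKM in CPE and 0.590 FPKM in SNE, a log2 ratio of -1.47 per the authors' deposited table (p = 0.25, q = 0.493). With a pseudocount of 0.1 or 1 that ratio became -1.14 or -0.39. The 3' end of NR1D1 overlaps that of THRA on the opposite strand, and THRA had 1.91 FPKM in CPE and 6.19 FPKM in SNE per the authors' deposited table (q = 0.214). The libraries were stranded, but the sources used here do not say whether counting used the strand, and reads in the overlap may belong to either gene.

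Gene length was set beside the ratio as a description, with spans from GENCODE 29. CLOCK, ARNTL and CRY1 are the longest members at 119.2, 110.6 and 102.5 kb, with log2 ratios of -0.37, -1.37 and -1.16. DBP and NR1D1 are the shortest at 7.41 and 7.94 kb, with -1.99 and -1.47. PER1 spans 16.0 kb, with -0.66 for its merged row, and PER2 spans 46.1 kb, with -1.37. NR1D2 and CRY2 have nearly equal spans of 35.4 and 36.1 kb and the lowest and highest ratio of the members, -2.19 and 0.48.

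Of 53 other genes of the clock pathway, 49 were tested, of which 25 were called lower in CPE, 0 were called higher in CPE and 24 were not called. The called share of 51% stands beside the 41.2% of all tested symbol loci, and 11 of the 49 genes shared a row with another gene. Called shares differed by level. They were 33.8% in either direction in the members' mean FPKM range, and 59.3% as higher in SNE between 8.13 and 137.1 FPKM. No share was computed at the levels of the 49 genes, so 51% is not read as an excess. Cuffdiff's unadjusted p was under 0.05 for 32 genes lower in CPE and for 0 genes higher in CPE. After centring, 3 of the 25 called genes had a ratio above 0, without a new test. The median log2 ratio of the 49 was -1.22, against -1.37 for the 9 members and -1.21 for all tested symbol loci. Among the genes without a test, RORB and AVP were too low, and BTRC lay in a region beyond the data limit of Cuffdiff.

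**Figure D3:**
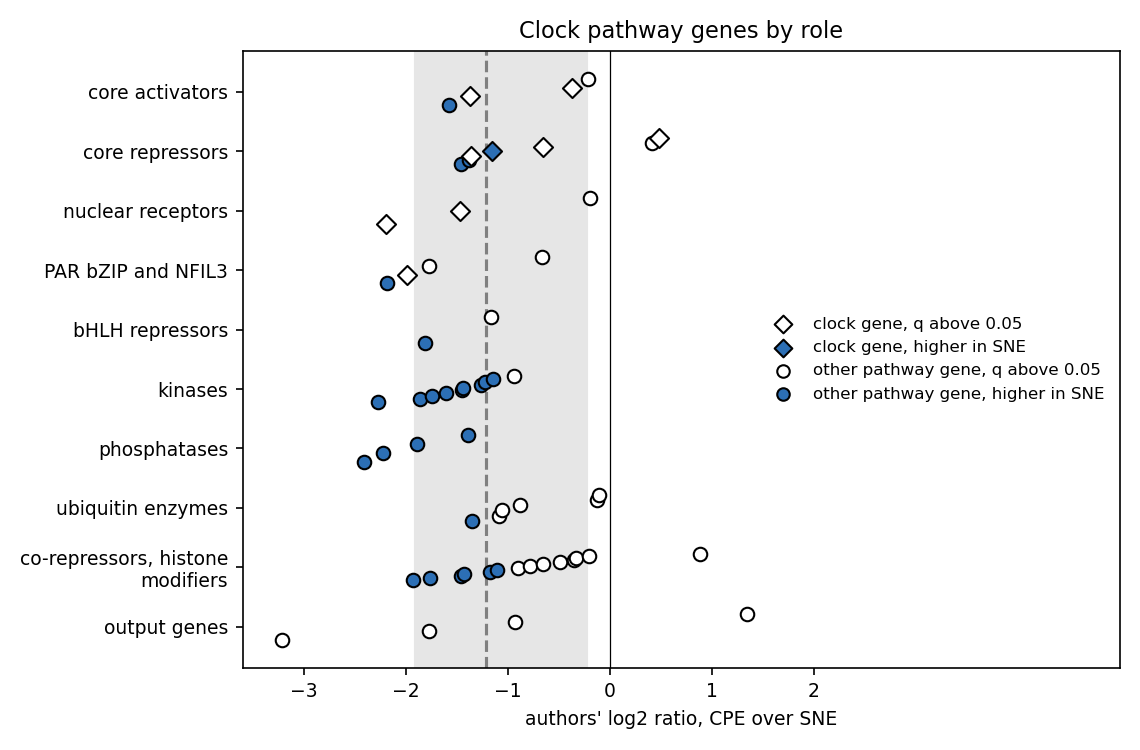
The deposited log2 ratio (CPE over SNE) for tested clock pathway genes by role, with the 9 clock genes as diamonds, the other genes as circles and called genes filled. The dashed line is the median of all tested loci with a symbol, -1.21, and the grey band their interquartile range; kinases and phosphatases hold 13 of the 25 called circles.

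Calls were made for 13 of 14 kinases and phosphatases, enzymes that act on the stability of PER and CRY proteins, all 13 as lower in CPE. Of all tested symbol loci 39.3% were called in that direction, and 59.3% of those in the mean FPKM range of these enzymes, 8.13 to 137.1. Of 10 kinases, 9 were called lower in CPE: CSNK1A1, a casein kinase and the most abundant of them in a row shared with 1 other gene, had 81.8 FPKM in CPE and 191.1 FPKM in SNE per the authors' deposited table (q = 0.00194). The lowest kinase ratio, -2.27, belonged to GSK3A, whose row is merged with ERF, per the authors' deposited table (q = 0.00134). CSNK1D, whose product phosphorylates PER proteins, was the exception, with a log2 ratio of -0.94 and a q of 0.0590 per the authors' deposited table. All 4 phosphatase subunits were called lower in CPE, with log2 ratios between -2.41 for PPP1CA and -1.39 for PPP5C per the authors' deposited table. PPP1CC, the most abundant of them, had 58.1 FPKM in CPE and 216.1 FPKM in SNE. Among the tested ubiquitin enzymes FBXW7 had the highest ratio, -0.11, and HUWE1 the highest level, with 56.0 FPKM in CPE and 117.0 FPKM in SNE, and neither was called per the authors' deposited table.

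The remaining transcription factors and cofactors followed several patterns. NFIL3, which competes with DBP for the D-box, was called lower in CPE with a log2 ratio of -2.18 per the authors' deposited table (q = 0.0180), beside the uncalled -1.99 of DBP. HLF, a relative of DBP, had a log2 ratio of -0.66 without a call per the authors' deposited table (q = 0.437). BHLHE40, an E-box repressor, was called lower in CPE with a log2 ratio of -1.81 (q = 0.0448), and BHLHE41, in a merged row, was not called at -1.17 (q = 0.546), both per the authors' deposited table. TIPIN, in a merged row, and its partner TIMELESS were called lower in CPE with log2 ratios of -1.46 and -1.38 per the authors' deposited table. CIART, a repressor of CLOCK and ARNTL, was at 0.359 FPKM in CPE and 0.271 FPKM in SNE, without a call per the authors' deposited table. RORA, the activator opposing NR1D1 and NR1D2 at their element, had 6.57 FPKM in CPE and 7.50 FPKM in SNE, a log2 ratio of -0.19 per the authors' deposited table (q = 0.790). Of 14 co-repressors and histone modifiers 6 were called lower in CPE, beside the 39.3% of all tested symbol loci. Most of the 14 lay in the mean FPKM range of the kinases and phosphatases, 8.13 to 137.1. In that range 59.3% of tested symbol loci were called lower in CPE. NONO, in a merged row, had the lowest ratio of that role, -1.93, and the highest level in the list, and KMT2A the highest ratio, 0.89 without a call, per the authors' deposited table (q = 0.493). None of the 4 tested output genes was called by Cuffdiff, where PROK2 and NOCT had an unadjusted p of 0.0365 and 0.0228 at log2 ratios of -3.22 and -1.77, and WEE1 had a ratio of 1.34 in a row merged with small RNA copies, per the authors' deposited table. The ratio of PROK2 rests on low levels, 0.137 FPKM in CPE and 1.28 FPKM in SNE per the authors' deposited table.

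By distance over log2(FPKM + 0.1) in the 2 fractions, the pathway genes most like CRY2, the member with the highest ratio, included NPAS2 (distance 0.61) and BHLHE41 (1.14). Those most like NR1D2, the member with the lowest, were WDR5 (0.59), NOCT (0.70) and PRKAA2 (0.72). NPAS2 had 4.33 FPKM in CPE and 5.02 FPKM in SNE, and WDR5 had 6.01 FPKM in CPE and 20.4 FPKM in SNE, per the authors' deposited table. Likeness rests on 2 values per gene.

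The table also lists loci without a symbol in the genomic regions that hold the clock genes, and nearly all of these had ratios above 0. Of 183 such loci in the 9 regions 167 were tested, of which 161 had a ratio above 0 (96.4%) and 6 below. Over all regions, 97.3% of the 174660 tested loci without a symbol had a ratio above 0, a share near that of the clock regions. By the authors' q 7 of the 167 were called higher in CPE (4.19%, against 9.45% over the table), 1 was called higher in SNE (0.63% over the table) and 159 were not called. The ratio of the locus was above that of the clock gene of its region in 164 of 167 cases. Medians over the whole table lay in the same order, 3.33 for tested loci without a symbol and -1.21 for those with one. The matching share in regions of other genes was not computed, so the count is not read as particular to clock regions. Regions also hold neighbouring genes, and the table gives no coordinates of single loci, so whether a locus lies in an intron of the clock gene could not be determined.

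**Figure D4:**
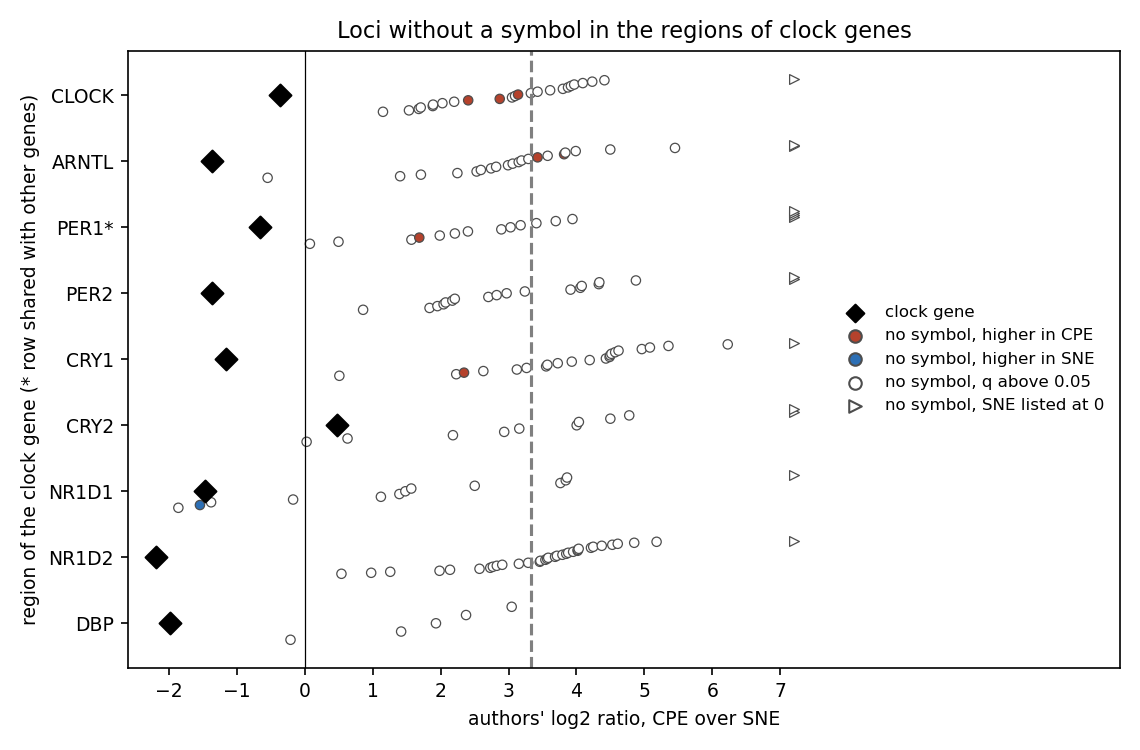
The deposited log2 ratio (CPE over SNE) for tested loci without a symbol (circles) in the region of each clock gene and for the gene itself (diamonds), with called loci coloured and loci listed at 0 in SNE set as triangles at the right. The dashed line is the median of all tested loci without a symbol, 3.33, and each diamond lies left of most circles of its row.

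The called loci lay in 5 regions. In the CLOCK region 3 of 24 tested loci were higher in CPE, the most abundant with 4.29 FPKM in CPE and 0.587 FPKM in SNE per the authors' deposited table (7.31-fold, q = 0.0224). In the ARNTL region 2 of 22 were higher in CPE, the most abundant with 1.27 FPKM in CPE and 0.0900 FPKM in SNE per the authors' deposited table (14.1-fold, q = 0.000706). The PER1 region had 1 called locus, with 1.83 FPKM in CPE and 0.568 FPKM in SNE per the authors' deposited table (q = 0.00307). The CRY1 region had 1, with 2.38 FPKM in CPE and 0.470 FPKM in SNE per the authors' deposited table (5.08-fold, q = 0.00194). CRY1 is thus a gene called lower in CPE in a region where an unnamed locus was called higher in CPE. The NR1D1 region held the locus called higher in SNE, with 2.85 FPKM in CPE and 8.32 FPKM in SNE per the authors' deposited table (q = 0.00853), levels above those of NR1D1 itself.

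The loci without a symbol in the NR1D2 region had the highest CPE levels of the 9 regions but no calls. Its 34 tested loci without a symbol all had ratios above 0, with a median of 6.33 FPKM in CPE and 0.445 FPKM in SNE, while the CPE medians of the other 8 regions lay between 0.626 and 1.54 FPKM. The highest reached 21.0 FPKM in CPE, above the 4.02 FPKM of NR1D2 in the same fraction. By Cuffdiff 0 of the 34 were called and 0 had an unadjusted p under 0.05 (16.7% of all tested loci without a symbol had one), with a lowest q of 0.30. UBE2E1 and RPL15, neighbours in that region, were far more abundant than NR1D2, with 43.4 and 66.3 FPKM in CPE and 141.6 and 241.3 FPKM in SNE per the authors' deposited table. Over all 9 regions, 16 other loci with a symbol were tested, of which 6 were called higher in SNE, near the 39.3% of all tested symbol loci, and 0 higher in CPE. HES6 beside PER2, BTBD10 beside ARNTL and the merged row of RPL18 beside DBP were among the 6, with log2 ratios of -2.38, -1.79 and -2.50 per the authors' deposited table.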

How the data were processed

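Stranded total RNA libraries of HEK293 nuclear fractions were aligned to hg19, and per the submitters' processing notes TopHat2 (a spliced aligner) and Cuffdiff (expression estimates and their test) were used. The sources used here give no versions, parameters or annotation. The deposited gene table holds FPKM values pooled by the authors for CPE and SNE, their log2 ratio of CPE over SNE, with a p-value and an adjusted q-value, per the file headers. The deposited isoform table carries no member's symbol in any row and was not used.

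Members were matched by symbol, also within rows that name several genes. Calls were the authors' own (status OK, q of at most 0.05), and no test was added, since the table has no replicate values. Whether the replicates came from separate cultures is not told beyond the design text's word biological. Start positions are counted from 1. Loci without a symbol were taken where their region was identical to a member's. Gene spans came from GENCODE 29 and promoters from RefSeq (GRCh38.p14), and motifs were searched with exact letters. All members were named. Of the other 53 pathway genes, those with the highest ratio, lowest ratio and highest FPKM of each role were named, and genes named beyond that rule (TIMELESS, and among neighbours HES6, BTBD10, RPL18, UBE2E1, RPL15 and THRA) were chosen after their values were seen. Some genes that the rule names are not reported here. The members and lists were chosen with earlier results of these data known. The code of the calling and matching steps was checked on inputs with known answers, which tests the code only. Scripts used Python 3.11.15, pandas 2.3.3 and numpy 2.4.6.

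Alternatives were a q of at most 0.01, a minimum absolute log2 ratio of 1, a minimum FPKM of 1, rows with 1 symbol only, pseudocounts of 0.1 and 1, centring on the median of tested symbol loci, and a shorter promoter window.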

Additional observations from a re-analysis of the deposited data

How the results depend on the processing

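No paired analysis was possible because the table holds 1 pooled value per fraction, and no replicate could be left out. At a q of at most 0.01 the count of clock genes higher in SNE was 0, so the call of CRY1 was lost. Centring, which subtracts the median of tested symbol loci (-1.21), left 0 called clock genes on the soluble side and 1 on the chromatin side (CRY1), and put 3 called pathway genes on the chromatin side. These are counts of sign, since the authors' q was not recomputed. The centred ratios of CLOCK, PER1 and CRY1 changed sign, to 0.85, 0.56 and 0.059. With rows of 1 symbol only, 16 pathway genes were higher in SNE, against 25 with merged rows, because fewer genes were counted. The members' median log2 ratio, -1.37, became -1.15 with a pseudocount of 0.1, -0.80 with 1, -0.15 after centring and -1.26 at FPKM of at least 1, which leaves out NR1D1. With the 250 bases before the start only, 1 member window held the receptor element, against 2. The other 48 settings kept direction and side of the threshold, or stayed within 1.5 times for a count. Depth was unknown, so what it limits at NR1D1 and PER2, the lowest members, could not be measured.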
